A study of Mus musculus with 79 samples.

Results

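Messenger RNA of 10 CC chemokines, Ccl2, Ccl3, Ccl4, Ccl5, Ccl6, Ccl7, Ccl8, Ccl9, Ccl12 and Ccl24, was followed through repair of the mouse sciatic nerve. They were taken by gene symbol from the 23361 genes counted in each library. The study asked how a wait before nerve grafting alters the immune response at the graft. A cut common peroneal branch was joined to the distal tibial stump through a silicone conduit, either at the time of injury or 8 weeks after the tibial nerve had been cut and left without axons. Macrophages and Schwann cells were sorted from the tissue bridge inside the conduit 5 or 14 days after the graft, and the distal tibial stump was taken at day 5.

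All mice expressed enhanced green fluorescent protein from the S100β promoter, which marks Schwann cells, and males and females entered every group. Animals given immediate repair had their skin and muscle opened and closed 8 weeks before the graft, so that both groups underwent an earlier operation. Bridges were not pooled, and each sorted library came from 1000 cells of 1 animal. The 79 libraries came from 32 animals. At day 5 there were 9 macrophage libraries after delayed repair and 8 after immediate repair, and at day 14 there were 7 and 8. The Schwann cell sort gave 9 and 7 libraries at day 5 and 7 and 8 at day 14, and the stump gave 9 and 7. Macrophages and Schwann cells of a given day came largely from the same animals.

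CC chemokines are small secreted proteins that draw leukocytes along a gradient by binding G protein-coupled receptors on their surface. Ccl2, Ccl7 and Ccl12 act through Ccr2 and call monocytes from the blood. Ccl3, Ccl4 and Ccl5 are inflammatory ligands that act on macrophages and T cells, Ccl3 and Ccl5 in part through Ccr1. In a cut nerve, Schwann cells and macrophages release these ligands within days of injury, and the monocytes that arrive clear myelin debris. Many of the genes are induced by NF-kB, the transcription factor family downstream of TNF and IL-1.

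Each library held between 14928745 and 28499407 counts in macrophages, between 11614940 and 30796823 in the Schwann cell sort and between 3898778 and 9212709 in the stump. Levels are given below as CPM, counts scaled to equal library totals. Sorted cells and stump were prepared with different kits, so their levels are given side by side and were not tested against each other. The 13 macrophage markers summed to between 20833 and 43027 CPM in every macrophage library, and S100b averaged 0.0891 CPM there at day 5. The libraries labelled Schwann cells matched their label in part. All 10 Schwann cell markers were called higher than in macrophages at day 5, where 35.6% of all genes were, with a summed median of 363 CPM against 19.0 CPM. In the 16 of day 5, S100b ran from 0 to 24.7 CPM with a median of 3.65, and Sox10, the transcription factor of the Schwann cell lineage, from 0 to 161 CPM with a median of 20.3. In those libraries 10 markers of dendritic cells summed to between 17333 and 33765 CPM against 1031 to 4662 CPM in macrophages, and Flt3, the receptor of dendritic cell progenitors, averaged 656 CPM against 0.907 CPM. These libraries are called the Schwann cell sort below, and their chemokine levels cannot be assigned to Schwann cells.

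Of the 10 genes, 9 lie on mouse chromosome 11 in 2 clusters (build GRCm38). Ccl2 (chr11:82035571-82037453), Ccl7 (chr11:82045712-82047525), Ccl12 (chr11:82101845-82103400) and Ccl8 (chr11:82115185-82116799), all on the forward strand, span 81.2 kb. After a gap of 1409.0 kb come Ccl5 (chr11:83525778-83530518), Ccl9 (chr11:83572919-83578636), Ccl6 (chr11:83587882-83593087) and Ccl3 (chr11:83647844-83649355) on the reverse strand and Ccl4 (chr11:83662584-83664683) on the forward strand, within 138.9 kb. Ccl24 lies alone on chromosome 5 (chr5:135569937-135573049, reverse strand). The members can be told apart by sequence, since for 9 of them no stretch of 50 bases of the longest transcript occurs in a transcript of another gene, and for Ccl9 2.0% of such stretches do. Ccl2 overlaps Gm17268 and Ccl6 overlaps E230016K23Rik, each on the opposite strand, and the kit used for sorted cells does not mark strand, so reads of these pairs cannot be told apart there.

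Promoters, from 250 bases before to 50 bases after the start site, were listed by RefSeq (GRCm38.p6) for 5 of the 10 members. Those of Ccl12 (chr11:82101595-82101894, forward), Ccl8 (chr11:82114935-82115234, forward), Ccl6 (chr11:83593038-83593337, reverse) and Ccl3 (chr11:83649329-83649628, reverse) are shown because these are the 4 members whose macrophage level differed between sexes at day 5. They are written 5′ to 3′ along the gene, and capitals mark the TATA box motif TATAAA.
Ccl12: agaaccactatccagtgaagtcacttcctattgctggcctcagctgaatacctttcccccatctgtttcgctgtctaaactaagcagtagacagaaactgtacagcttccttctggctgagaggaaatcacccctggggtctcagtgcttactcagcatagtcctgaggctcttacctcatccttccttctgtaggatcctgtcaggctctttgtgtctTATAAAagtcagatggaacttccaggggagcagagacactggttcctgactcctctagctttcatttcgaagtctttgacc
Ccl8: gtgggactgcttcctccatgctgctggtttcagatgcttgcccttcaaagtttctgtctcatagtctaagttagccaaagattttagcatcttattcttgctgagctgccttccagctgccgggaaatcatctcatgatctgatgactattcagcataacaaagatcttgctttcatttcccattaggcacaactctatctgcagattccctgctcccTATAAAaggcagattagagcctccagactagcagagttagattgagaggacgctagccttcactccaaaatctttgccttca
Ccl6: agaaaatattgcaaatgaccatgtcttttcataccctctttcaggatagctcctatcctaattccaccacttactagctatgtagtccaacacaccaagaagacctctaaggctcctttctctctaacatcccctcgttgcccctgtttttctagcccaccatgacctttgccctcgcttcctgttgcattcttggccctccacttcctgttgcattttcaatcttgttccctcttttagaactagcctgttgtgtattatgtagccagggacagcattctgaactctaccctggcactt
Ccl3: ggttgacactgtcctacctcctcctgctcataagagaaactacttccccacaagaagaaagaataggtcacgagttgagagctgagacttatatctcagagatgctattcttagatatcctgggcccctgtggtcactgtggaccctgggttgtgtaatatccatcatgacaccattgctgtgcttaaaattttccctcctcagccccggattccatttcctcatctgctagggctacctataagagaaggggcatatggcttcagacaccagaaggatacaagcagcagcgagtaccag
TATAAA on either strand occurred in 13.6% of 32851 mouse promoters of this length. It began 31 bases before the start site in Ccl12 and 32 bases before it in Ccl8, and these letters were not in the windows of Ccl6 and Ccl3. The AP-1 motif TGANTCA, on either strand, occurs in 7.81% of all promoters and was in none of these 4 windows. An NF-kB motif, GGG followed by 3 bases of any kind and TTCC or TCCC, occurs in 10.4% of all promoters and was also in none of them. A C/EBP motif, TT, 2 bases of any kind, G, 1 base of any kind and AA, occurs in 40.7% and of these 4 was in Ccl3 alone, 100 bases before the start site. The remaining promoter, that of Ccl9, held 1 NF-kB match, 1 AP-1 match, 2 C/EBP matches and 3 matches to TATAAA over both strands.

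Per kilobase of transcript, the scale on which genes can be compared, Ccl8 led the family in macrophages at day 5 with 3181 ± 2455 CPM per kb (SD, n = 17). Ccl7 followed with 2795 ± 899, Ccl6 with 2384 ± 928, Ccl4 with 2206 ± 858, Ccl2 with 1408 ± 439 and Ccl3 with 1352 ± 591 CPM per kb. Each of these neighbours differed by less than the SD of the higher gene, so their order is not resolved. Ccl9 (497 ± 124), Ccl12 (176 ± 83.7), Ccl5 (32.1 ± 16.3) and Ccl24 (11.9 ± 17.2 CPM per kb) followed, and each of these steps down was larger than the SD of either neighbour. Together the 10 genes took a median of 1.09% of all counts after delayed repair, with a range of 0.899% to 1.71%, and 1.26% after immediate repair, with a range of 0.878% to 1.94%. Receptors of the family were present in the same cells, with Ccr1 at 621 ± 93.8 CPM, Ccr2 at 40.9 ± 26.7 CPM and Ccr3, the receptor of Ccl24, at 7.76 ± 3.42 CPM (SD, n = 17). In the stump Ccl8 again had the highest mean, at 303 ± 245 CPM per kb (SD, n = 16), ahead of Ccl6 with 140 ± 56.3, Ccl7 with 84.7 ± 31.4 and Ccl2 with 77.3 ± 26.1 CPM per kb. Ccl5 led only in the Schwann cell sort, with 1362 ± 385 CPM per kb at day 5 (SD, n = 16), ahead of Ccl4 with 471 ± 376 CPM per kb.

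In macrophages Ccl2 and Ccl7, which attract monocytes, fell between day 5 and day 14 after both kinds of repair. After immediate repair Ccl2, the main ligand of Ccr2, ran from 812 to 1913 CPM at day 5 with a median of 1304, and from 254 to 692 CPM at day 14 with a median of 469. The days did not overlap, and Ccl2 fell 3.15-fold (log2 change -1.66, SE 0.22, adjusted p = 0.000103, edgeR's quasi-likelihood test with Benjamini-Hochberg adjustment over all genes, as for every adjusted p below). Ccl7, which shares that receptor, ran from 1391 to 3949 CPM with a median of 2484 at day 5 and from 537 to 1315 CPM with a median of 1008 at day 14. It fell 2.97-fold with no overlap between days (log2 change -1.57, SE 0.23, adjusted p = 0.000198). Of the 10 members 7 passed the test, 6 of them lower at day 14, where 11.3% of 8507 genes passed in either direction, 6.01% were lower and 5.33% higher at day 14, and 2.77% had days that did not overlap. The median log2 change of the family was -0.99 against 0.01 over all genes.

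The inflammatory ligands Ccl3 and Ccl4 and the Ccr1 ligand Ccl6 fell with them. Ccl4 (medians 1566 and 697 CPM) fell 2.67-fold (adjusted p = 0.00163) and Ccl3 (medians 1158 and 525 CPM) fell 2.54-fold (adjusted p = 0.00256). Ccl6, a ligand of Ccr1 that rodents make and the most abundant member in CPM, had medians of 3261 and 2157 CPM and fell 1.81-fold (adjusted p = 0.00772). For each of these 3 the days overlapped, yet no day 14 library reached the day 5 mean. Ccl12 fell 2.18-fold, from a median of 86.8 to 54.2 CPM, but its call was close to the threshold (adjusted p = 0.031). It was lost when any of day 5 replicates 5, 6 and 7 or day 14 replicates 1, 2, 3 and 5 was left out, with adjusted p values up to 0.0685, and with library size scaling (0.0558).

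The other 3 did not follow, and 1 went the opposite way. Ccl8, which in mice acts mainly through Ccr8, had medians of 1405 and 1135 CPM (log2 change -0.67, SE 0.35, adjusted p = 0.239), and its range narrowed from 411 to 4193 CPM at day 5 to 732 to 1554 CPM at day 14. Ccl9, another ligand of Ccr1, had medians of 1450 and 1285 CPM (log2 change -0.21, SE 0.11, adjusted p = 0.218), and without day 5 replicate 3, its lowest library, the adjusted p was 0.0437. Ccl5 had medians of 21.2 and 23.3 CPM (log2 change 0.30, SE 0.40, adjusted p = 0.687). Ccl24, a Ccr3 ligand that attracts eosinophils, was the only member that rose, from 6.08 to 18.8 CPM with a median of 12.8 at day 5 to 10.9 to 69.4 CPM with a median of 26.5 at day 14 (2.19-fold, adjusted p = 0.0291). That call was lost without day 5 replicate 2 or 3 or day 14 replicate 6 or 8, with adjusted p values up to 0.0591.

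**Figure D1:**
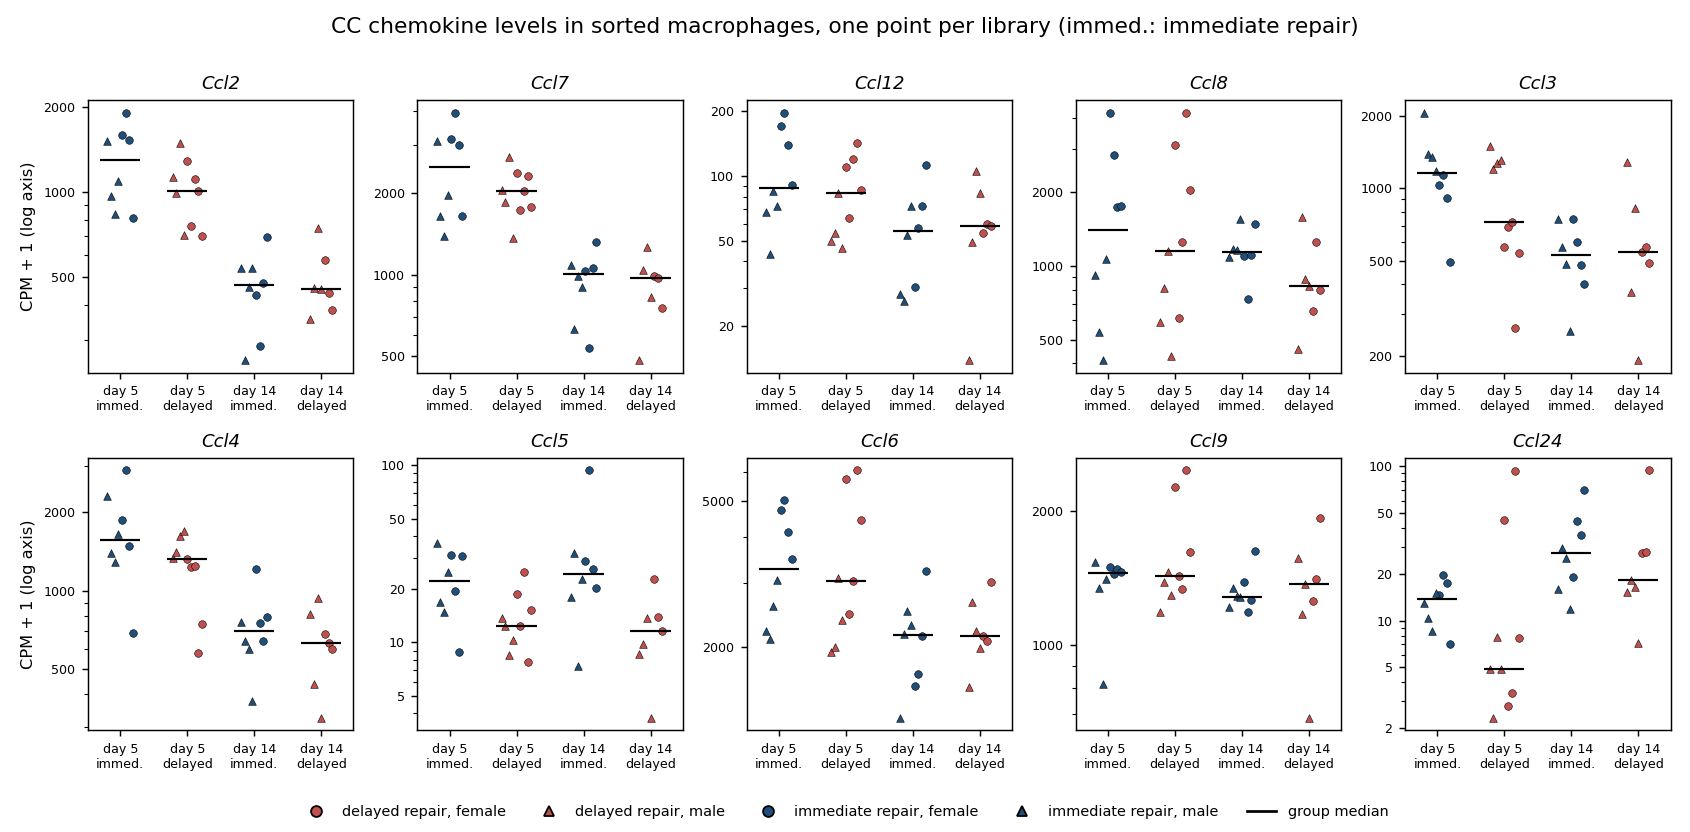
Level of each of the 10 chemokines in sorted macrophages (CPM + 1, log axis), 1 point per library and 1 panel per gene, by day and repair group, with triangles for males, circles for females and a line at the group median. Ccl2 and Ccl7 after immediate repair do not overlap between days, with Ccl2 medians of 1304 CPM at day 5 and 469 CPM at day 14.

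After delayed repair the same direction was seen with fewer calls. Ccl7 ran from 1363 to 2714 CPM with a median of 2028 at day 5 and from 483 to 1259 CPM with a median of 968 at day 14. It fell 2.34-fold with no overlap (adjusted p = 0.000457). Ccl2 fell 2.2-fold from a median of 1009 to 454 CPM (adjusted p = 0.00188), and Ccl4 fell 2.07-fold from 1320 to 631 CPM (adjusted p = 0.0177), both with overlapping ranges. These 3 of 10 members stand beside 6.41% of 8529 genes called in either direction, 3.13% called lower at day 14 and 1.38% without overlap. Ccl6 had medians of 3032 and 2141 CPM (log2 change -0.67, SE 0.21, adjusted p = 0.0654), and it passed when day 5 replicate 1 or 2 was left out, with adjusted p values down to 0.0462, and by DESeq2 (0.0200). The other 6 ran from a log2 change of -0.79 for Ccl8 to 0.65 for Ccl24 and did not pass, Ccl12 among them (-0.51, adjusted p = 0.352). Whether the fall differed between repair groups was tested by the interaction of repair and day, which called 0.0223% of 8949 genes and no member, and 0 members had an unadjusted p under 0.05 in edgeR where 3.61% of genes did. DESeq2 called 0 members as well.

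The NF-kB list, 16 genes of the factor family, its inhibitors, its kinases and the cytokines that drive it, was followed alongside. After immediate repair 8 of its 16 genes were lower at day 14 and none higher. Il1b fell from 1267 ± 261 to 565 ± 142 CPM (SD, n = 8 each, log2 change -1.33, adjusted p = 8.54e-05), Tnf from 1134 ± 381 to 468 ± 155 CPM (-1.48, adjusted p = 0.00122) and Nfkbia, the inhibitor that NF-kB itself induces, from 2535 ± 328 to 1531 ± 372 CPM (-0.90, adjusted p = 0.000162). After delayed repair 1 of the 16 passed, Nfkbia (log2 change -0.67, adjusted p = 0.00083), with Tnf at -0.77 and Il1b at -0.42. These counts stand beside 6.01% and 3.13% of all genes lower at day 14. The interaction of repair and day called 0 of the 16 by edgeR, with 2 at an unadjusted p under 0.05, so the counts are not shown to differ between repair groups. Of 6 CC receptors tested, Ccrl2, an atypical receptor that binds chemerin (log2 change -1.07, adjusted p = 0.00203), and Ccr1 (-0.56, adjusted p = 0.00506) were lower at day 14 after immediate repair, and none passed after delayed repair. Macrophage markers summed to medians of 31383 CPM at day 5 and 34051 CPM at day 14 after immediate repair and 27658 and 34033 CPM after delayed repair. Singly, Cd14, Cd68, Fcgr1 and Itgam were called lower and Lyz2 higher at day 14 after immediate repair, 5 of the 13, and Itgam lower after delayed repair. Of 2 neutrophil markers tested after immediate repair, the myeloid gene S100a8 was called lower at day 14 and the other was fitted above 0. After delayed repair S100a8 was again called lower, and 0 of the 2 were fitted above 0. The summed dendritic cell markers went from 1031 to 3703 CPM at day 5 to 7698 to 14533 CPM at day 14 after immediate repair. After delayed repair they went from 1719 to 4662 CPM to 6825 to 17807 CPM. Only 3 genes of that list were tested in these libraries, and 2 were called higher at day 14 after each kind of repair. Of all genes 5.33% and 3.28% were called higher. The part of these markers in the changes of the chemokines was not tested.

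No member passed the test for delay in macrophages. At day 5 Ccl2 ran from 699 to 1489 CPM with a median of 1009 after delayed repair and from 812 to 1913 CPM with a median of 1304 after immediate repair. The ranges overlapped, with 3 delayed libraries below every immediate one and 4 immediate libraries above every delayed one, and the log2 difference was -0.42 (SE 0.20, unadjusted p = 0.0549, adjusted p = 0.931). Ccl5 had the smallest p. It ran from 6.76 to 24.0 CPM with a median of 11.4 after delayed repair and from 7.78 to 35.3 CPM with a median of 21.2 after immediate repair (log2 difference -0.87, SE 0.27, unadjusted p = 0.00483, adjusted p = 0.561). Only 1 of the 9 delayed libraries lay above the immediate mean. With 0 of 10 members called by edgeR or by DESeq2 and 1 at an unadjusted p under 0.05, the family stood beside a background of 0.0357% of 8409 genes called and 5.17% at an unadjusted p under 0.05.

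Of the 10 fitted differences at day 5, 8 were below 0, with 7 when libraries were scaled by their size alone, as Ccl6 turned to 0.02, and 9 by DESeq2, with sex as a covariate or with a replicate block, as Ccl24 turned negative. The 10 had a median of -0.40 on the log2 scale against 0.01 over all genes. Ccl4 (-0.54, SE 0.26), Ccl12 (-0.49, SE 0.27), Ccl3 (-0.49, SE 0.33) and Ccl7 (-0.39, SE 0.20) lay farther from 0 than Ccl8 (-0.22, SE 0.46) and Ccl6 (-0.09, SE 0.23). Several members rose and fell together across libraries, so these are not 8 separate observations. Ccl9 (0.12, SE 0.14) and Ccl24 (0.38, SE 0.69) were fitted above 0. Ccl24 was uneven after delayed repair, from 1.34 to 92.5 CPM with a median of 3.83, against 6.08 to 18.8 CPM with a median of 12.8 after immediate repair, so that its median and its fitted difference point opposite ways.

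At day 14, 0% of 8589 genes passed and 2.21% had an unadjusted p under 0.05. Among the members this was Ccl5, which ran from 2.75 to 21.7 CPM with a median of 10.7 after delayed repair and from 6.37 to 92.7 CPM with a median of 23.3 after immediate repair. The ranges overlapped (log2 difference -1.45, SE 0.46, unadjusted p = 0.00579, adjusted p = 1.0). Immediate replicate 6, at 92.7 CPM, weighed on it, and without that library the difference was -0.93. DESeq2 called 0 members. The other 9 differences ran from -0.33 for Ccl8 to 0.22 for Ccl3. Summed markers of T and NK cells, which are known to make Ccl5 and of which the sort gates out T cells by CD3e, reached 0.69 CPM at most in any day 5 macrophage library and 6.82 CPM at day 14. The highest day 14 sums, 6.82 and 5.06 CPM, were in delayed replicates 6 and 7, with Ccl5 at 21.7 and 12.8 CPM. Immediate replicate 6, with Ccl5 at 92.7 CPM, had a sum of 0.0583 CPM. The part of T and NK cells in the level of Ccl5 was not tested. The delayed and immediate libraries of a day also serve in the comparisons between days, so the day and delay results are not independent of each other.

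**Figure D2:**
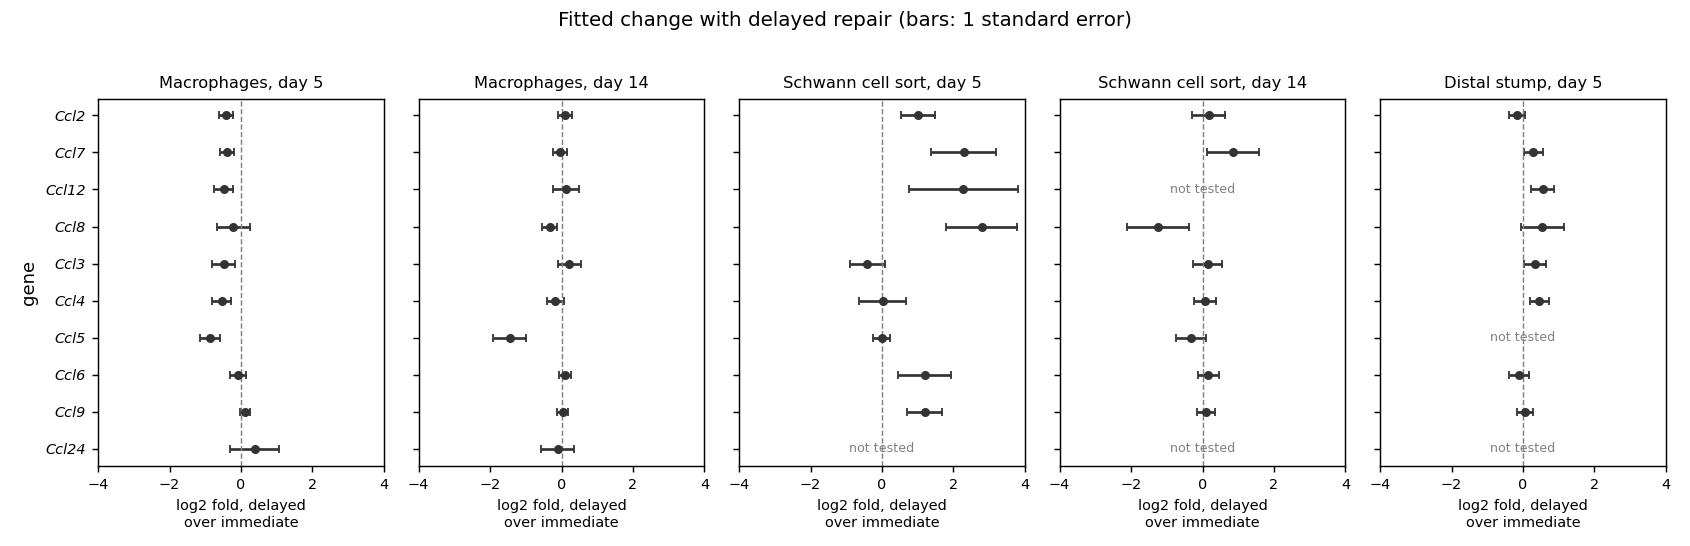
Fitted log2 difference, delayed over immediate repair, for each chemokine in the 5 settings measured, with bars of 1 standard error and a dashed line at 0. In macrophages at day 5 8 of the 10 points lie below 0, and in the Schwann cell sort at day 5 Ccl7 (2.28) and Ccl8 (2.79) lie farthest to the right. No point passed an adjusted p of 0.05.

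Between cell types, 9 of the 10 members were lower in the Schwann cell sort than in macrophages at day 5, and Ccl5 was higher. At that day 65.3% of 10087 genes differed, 29.7% lower and 35.6% higher in the Schwann cell sort. Ccl5, which attracts T cells and is made by activated lymphoid and dendritic cells among others, ran from 466 to 1129 CPM in the sort with a median of 695 and from 6.76 to 35.3 CPM in macrophages with a median of 14.3. The ranges were far apart, and Ccl5 was 38.4-fold higher in the sort (log2 difference 5.26, SE 0.24, adjusted p = 5.41e-19). At day 14, where 64.7% of 10596 genes differed, 27.6% lower and 37.1% higher in the sort and 17% without overlap, Ccl5 was 21.8-fold higher (516 ± 274 against 21.2 ± 21.5 CPM, SD, n = 15 each, adjusted p = 1.9e-11), again without overlap. Another CC ligand, Ccl22, which dendritic cells make in quantity, averaged 1233 ± 615 CPM in the day 5 sort and 4.50 ± 9.87 CPM in macrophages, and Ccr7, the receptor that takes dendritic cells to lymph nodes, averaged 7591 and 22.8 CPM. The part of dendritic cells in the level of Ccl5 was not tested.

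The other 9 were 5.34-fold (Ccl3) to 19.6-fold (Ccl7) lower in the sort at day 5, with adjusted p values of 0.00651 or less. Ccl2, Ccl7, Ccl6 and Ccl9 had no overlap between cell types, nor did 14.9% of all genes tested. At day 14 Ccl2 was the closest of the 9, at 254 ± 190 CPM against 473 ± 134 CPM (2.44-fold lower, adjusted p = 0.000115), and Ccl8 the farthest, at 25.9 ± 38.0 against 1055 ± 332 CPM (56.9-fold lower, adjusted p = 1.4e-10). T and NK cell markers summed to a median of 77.8 CPM and a maximum of 538 CPM in the day 5 sort, and their part in the level of Ccl5 was not tested.

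In the Schwann cell sort several members were widely spread between libraries at day 5, and for Ccl9, Ccl8, Ccl6 and Ccl7 the spread at that day followed macrophage markers. Ccl8 ran from 2.41 to 585 CPM with a median of 69.0 after delayed repair and from 2.49 to 85.6 CPM with a median of 25.6 after immediate repair. The 4 highest libraries were all from females with delayed repair, while the lowest of both groups were alike (log2 difference 2.79, SE 0.99, unadjusted p = 0.0117, adjusted p = 0.818). Ccl7 ran from 3.14 to 632 CPM with a median of 242 after delayed repair and from 0.93 to 241 CPM with a median of 33.1 after immediate repair (2.28, SE 0.91, unadjusted p = 0.0217, adjusted p = 0.884), and the difference was 3.32 without immediate replicate 5. Ccl9 had medians of 241 and 87.2 CPM (1.2, SE 0.49, unadjusted p = 0.0249, adjusted p = 0.884). The ranges of all 3 overlapped.

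By edgeR 0 of the 9 members tested were called in that comparison, 3 had an unadjusted p under 0.05 and DESeq2 called 0, where 0% of 9604 genes passed and 5.26% had an unadjusted p under 0.05. Of the 9, 7 were fitted above 0, with a median of 1.2 on the log2 scale against -0.01 over all genes. Ccl5 was level, at 501 to 1111 CPM after delayed and 466 to 1129 CPM after immediate repair (-0.01, SE 0.24, 0.06 when scaled by library size alone). Ccl24 was listed at 0 in all 7 immediate libraries and in 5 of 9 delayed ones, and was not tested.

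The 13 macrophage markers summed to between 386 and 13252 CPM with a median of 3540 in the delayed libraries of that sort and to between 265 and 4335 CPM with a median of 1224 in the immediate ones. Of the 13, 12 were fitted higher after delay and none passed. Across the 16 libraries this sum followed Ccl9 (r = 0.943, Spearman's rho 0.862), Ccl8 (0.859 and 0.868), Ccl6 (0.847 and 0.824) and Ccl7 (0.837 and 0.788) on log scales, and hardly Ccl5 (0.0387 and 0.194). For Ccl2 it was 0.677 (rho 0.624), with 0.918 in the 8 females and 0.193 in the 8 males, and for Ccl12 0.774 (rho 0.705). Without the 2 libraries farthest from the median of the sum, r was 0.921, 0.788, 0.821, 0.806 and 0.342 for Ccl9, Ccl8, Ccl6, Ccl7 and Ccl5. The points share libraries and depth with the members, and these values describe them only. With the mean level of the marker list as a covariate the differences were 0.37 for Ccl8, 0.63 for Ccl7, 0.24 for Ccl9, 0.14 for Ccl2, -0.18 for Ccl6 and -0.82 for Ccl12 on the log2 scale, none of them called. Schwann cell markers summed to medians of 241 CPM after delayed and 767 CPM after immediate repair in these libraries, and their part was not tested. At day 14, over 15 libraries, r with the macrophage sum was 0.594 for Ccl9, 0.502 for Ccl8 and 0.326 for Ccl7. It was 0.858 for Ccl6 and -0.496 for Ccl5. The r values over all libraries of a day were not centred on repair group or sex.

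**Figure D3:**
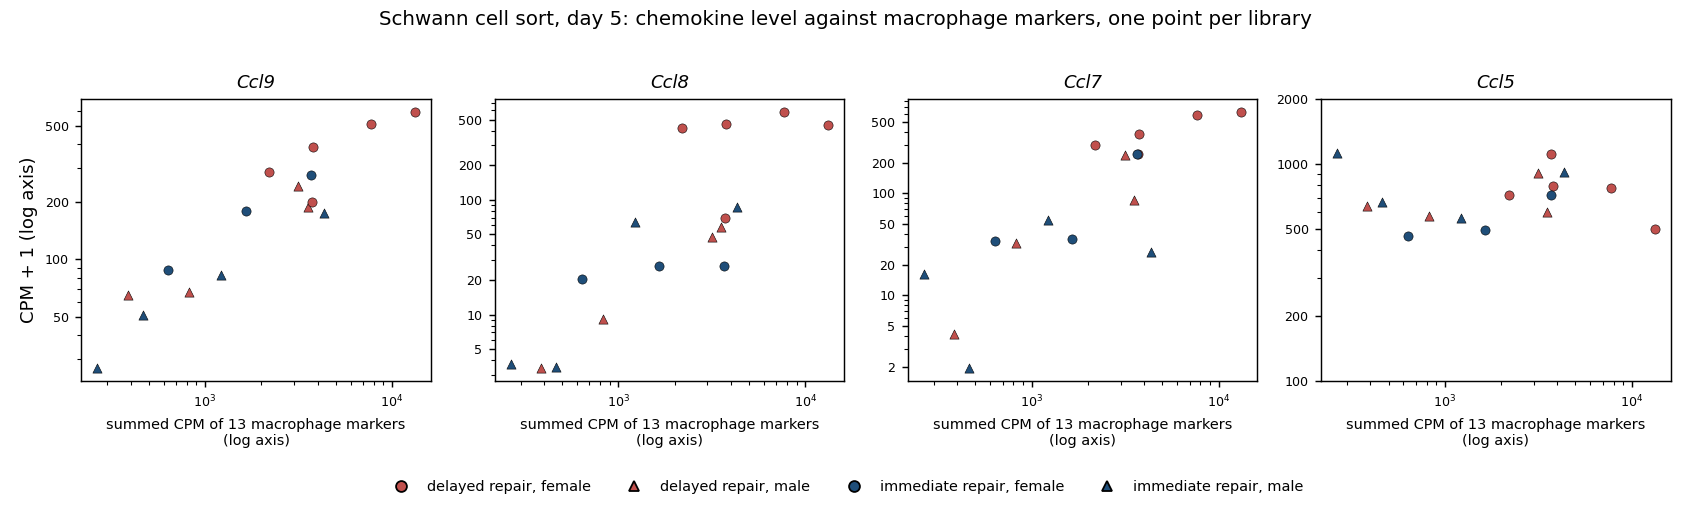
Level of Ccl9, Ccl8, Ccl7 and Ccl5 in the 16 day 5 libraries of the Schwann cell sort (CPM + 1, log axis) against the summed CPM of 13 macrophage markers (log axis), with colour for repair group and shape for sex. Ccl9, Ccl8 and Ccl7 climb with the marker sum (r = 0.943, 0.859 and 0.837), and Ccl5 stays between 466 and 1129 CPM.

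Whether delay acted differently in the 2 cell types was tested directly at day 5. The interaction of repair and cell type called 0.0198% of 10087 genes and no member by edgeR. The 2 genes called were receptors of the family. Ccr1 averaged 117 ± 88.6 CPM after delayed and 20.9 ± 10.8 CPM after immediate repair in the sort (SD, n = 9 and 7) and 624 ± 88.2 and 618 ± 106 CPM in macrophages (interaction 2.57, SE 0.48, adjusted p = 0.0326), and Ccr3 (adjusted p = 0.0215) averaged 2.30 ± 4.83 CPM in the sort, so that its fit rests on few counts. With the animal as a block edgeR called neither, 0 of 10074 genes, with library size scaling 1 gene was called and DESeq2 called 21. Among the members the interaction was not called, with Ccl7 at 2.74 (SE 0.90, adjusted p = 0.698) and Ccl8 at 3.04 (SE 1.08, adjusted p = 0.823), while 7 members and 5.19% of genes had an unadjusted p under 0.05. DESeq2 called 1, Ccl24, the gene listed at 0 in every immediate library of the sort. At day 14 this interaction called 0% of 10596 genes, with 1 member, Ccl24, and 3.42% of genes at an unadjusted p under 0.05, and the delay comparison of the sort called 0% of 10226 genes. Of the 8 members tested 0 were called by edgeR or DESeq2 and 0 had an unadjusted p under 0.05, as 3.65% of genes did. For Ccl8 the fit gave -1.24 (SE 0.87), which became -0.55 once immediate replicate 1 was left out. The difference of Ccl7, 0.85 (SE 0.73), came from delayed replicate 1 at 684 CPM and was -0.60 without it.

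In the Schwann cell sort 1 member changed between days after immediate repair and 2 after delayed repair. After immediate repair Ccl3 ran from 53.3 to 602 CPM with a median of 230 at day 5 and from 42.9 to 109 CPM with a median of 60.3 at day 14. It fell 4.16-fold with overlapping ranges (adjusted p = 0.0151), as 1 of 8 members tested beside a background of 3.81% of 10016 genes, 3.1% lower at day 14. Between these days fibroblast markers summed to medians of 1591 and 7110 CPM, macrophage markers to 1224 and 1902 CPM and Schwann cell markers to 767 and 845 CPM. With the macrophage list as a covariate Ccl3 was at -1.98 (adjusted p = 0.00482), and the part of the others was not tested. Ccl4 had medians of 223 and 85.2 CPM (log2 change -1.92, SE 0.62, adjusted p = 0.0955), and without day 5 replicate 1 its adjusted p was 0.0171. Ccl2 was fitted higher at day 14, with medians of 80.7 and 235 CPM (1.02, SE 0.47, adjusted p = 0.256). After delayed repair Ccl8 ran from 2.41 to 585 CPM at day 5 and from 3.37 to 27.5 CPM at day 14, a 17.1-fold fall (log2 change -4.09, SE 0.97, adjusted p = 0.0199), and Ccl4 fell 3.64-fold from a median of 343 to 81.2 CPM (adjusted p = 0.0199).

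These 2 of 10 stand beside 8.09% of 9961 genes, 4.75% lower at day 14. The interaction of repair and day in this sort called 0% of 10923 genes, with 1 member, Ccl8 (-4.07, SE 1.38, adjusted p = 0.777), and 4.8% of genes at an unadjusted p under 0.05, and DESeq2 called 1 member, Ccl24. Markers of other cells moved between these days, with summed medians of 3540 and 1938 CPM for macrophages, 241 and 2122 CPM for Schwann cells, 5 of 10 of whose markers were called higher at day 14, and 603 and 5079 CPM for fibroblasts. The part of the last 2 was not tested. With the macrophage list as a covariate the change of Ccl8 was -2.16 (adjusted p = 0.0663) and that of Ccl4 -1.38 (adjusted p = 0.0123). Sex as a covariate left Ccl8 at -2.82 (adjusted p = 0.0918). Ccl3 (log2 change -1.53), Ccl6 (-1.87) and Ccl5 (-0.82) missed the threshold with adjusted p values of 0.0657, 0.0666 and 0.0722. DESeq2 called 5 members. In edgeR Ccl3 passed without day 5 replicate 5 (adjusted p = 0.0299), Ccl6 without day 5 replicate 1 or 2 (down to 0.0255) and Ccl5 without day 14 replicate 3 (0.0131). Of 16 NF-kB genes, 3 were lower at day 14 after immediate repair, among them Tnfaip3 (log2 change -1.40, adjusted p = 0.00887), and 6 after delayed repair, among them Tnf (-2.19, adjusted p = 0.0214). Of all genes 3.1% and 4.75% were lower. The interaction of repair and day called 0 of the 16 by edgeR, with 0 at an unadjusted p under 0.05.

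**Figure D4:**
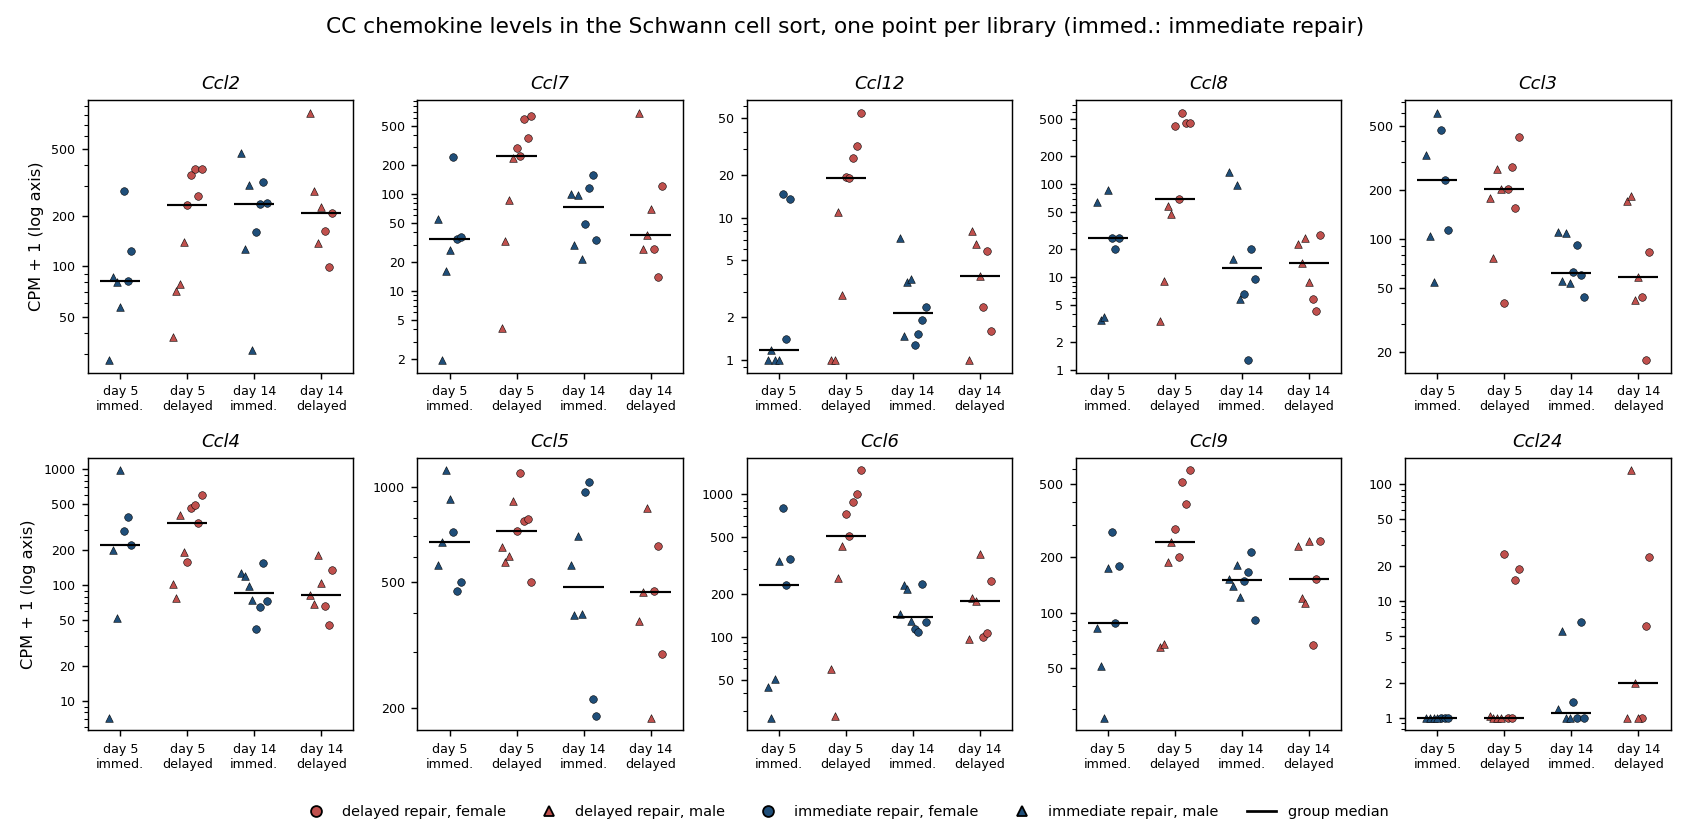
Level of each chemokine in the Schwann cell sort (CPM + 1, log axis), 1 point per library, by day and repair group, with triangles for males, circles for females and a line at the group median. Ccl8 after delayed repair reaches 585 CPM at day 5 and 27.5 CPM at day 14, and Ccl5 lies between 185 and 1129 CPM over both days.

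In the distal stump at day 5, where cells were not sorted, fewer cells of a type and less RNA per cell cannot be told apart. Delay called 26.3% of 12229 genes there, 12.8% higher and 13.5% lower, and none of the 8 members tested. Ccl8 ran from 39.6 to 402 CPM with a median of 158 after delayed repair and from 16.3 to 323 CPM with a median of 55.7 after immediate repair (log2 difference 0.54, SE 0.60, adjusted p = 0.545). Ccl12 had medians of 16.7 and 14.3 CPM (0.55, SE 0.32, adjusted p = 0.213). Ccl4 ran from 6.45 to 11.4 CPM and from 3.18 to 12.3 CPM (0.46, SE 0.26, adjusted p = 0.208), all 9 delayed libraries above the immediate mean, and without immediate replicate 4, its highest library, the difference was 0.72 with an adjusted p of 0.031.

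Ccl2 (-0.16, SE 0.23), Ccl6 (-0.12, SE 0.29) and Ccl9 (0.06, SE 0.22) differed least in the stump, and no member had an unadjusted p under 0.05 in edgeR where 38.5% of genes did. DESeq2 called 0 members. Schwann cell markers were lower after delay in 10 of 10 genes with a median log2 difference of -2.36. Macrophage markers were called higher in 2 of 13, beside 12.8% of all genes, and summed to 4301 to 7226 CPM after delayed and 1942 to 6825 CPM after immediate repair. With the macrophage list as a covariate, a fit chosen after the data were seen, Ccl6 was lower at -0.64 (adjusted p = 0.0175) and Ccl9 at -0.35 (adjusted p = 0.0442). The call of these genes thus depends on whether that covariate is in the fit. It is a level of marker RNA, and 12 of the 13 markers were themselves fitted above 0 after delay. The part of macrophage content was not tested.

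Genes of the NF-kB list did pass in the stump, and so did the receptor Ccrl2, which was higher after delay (log2 difference 0.77, adjusted p = 0.032). Of 16 NF-kB genes 8 were higher, among them Relb (0.56, adjusted p = 0.00115), Rel (0.67, adjusted p = 0.0015), Tnfaip3 (0.80, adjusted p = 0.00413) and Nfkbie (0.85, adjusted p = 0.00419), and 1, Ikbkg, was lower (-0.35, adjusted p = 0.00958), where 12.8% of all genes were higher and 13.5% lower. Of 9 dendritic cell markers tested 5 were also higher, and the part of cell content in these differences was not tested.

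Between the sexes 4 members differed in macrophages at day 5. Ccl8 ran from 613 to 4216 CPM with a median of 2028 in 9 female libraries and from 411 to 1153 CPM with a median of 699 in 8 male ones. Of the 9 females 8 lay above the male mean, and Ccl8 was 2.96-fold higher in females (log2 difference 1.57, SE 0.32, adjusted p = 0.00195). Ccl12, its neighbour on chromosome 11, had medians of 119 and 60.2 CPM and was 1.8-fold higher (adjusted p = 0.00435). Ccl6 had medians of 4424 and 2290 CPM and was 1.63-fold higher (adjusted p = 0.00475). For Ccl12 and Ccl6 all 9 females lay above the male mean.

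Ccl3 went the opposite way, from 262 to 1135 CPM with a median of 687 in females and from 1180 to 2062 CPM with a median of 1329 in males. The sexes did not overlap, and Ccl3 was 2.22-fold lower in females (log2 difference -1.15, SE 0.21, adjusted p = 0.000732). Ccl4, its neighbour on chromosome 11, showed medians of 1244 and 1509 CPM (-0.40, SE 0.25, adjusted p = 0.256). Ccl2 (-0.03, SE 0.20, 0.11 when libraries were scaled by their size alone) and Ccl7 (0.13, SE 0.20) lay close to 0. The 4 called members stand beside 25.1% of 8409 genes called by sex at this day, 13.8% higher and 11.3% lower in females, with no overlap for 3.7%. Of 13 macrophage markers 9 also differed, 7 higher and 2 lower in females. The labels give no dates of surgery or sorting, so sex and any difference in handling between sexes cannot be told apart.

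**Figure D5:**
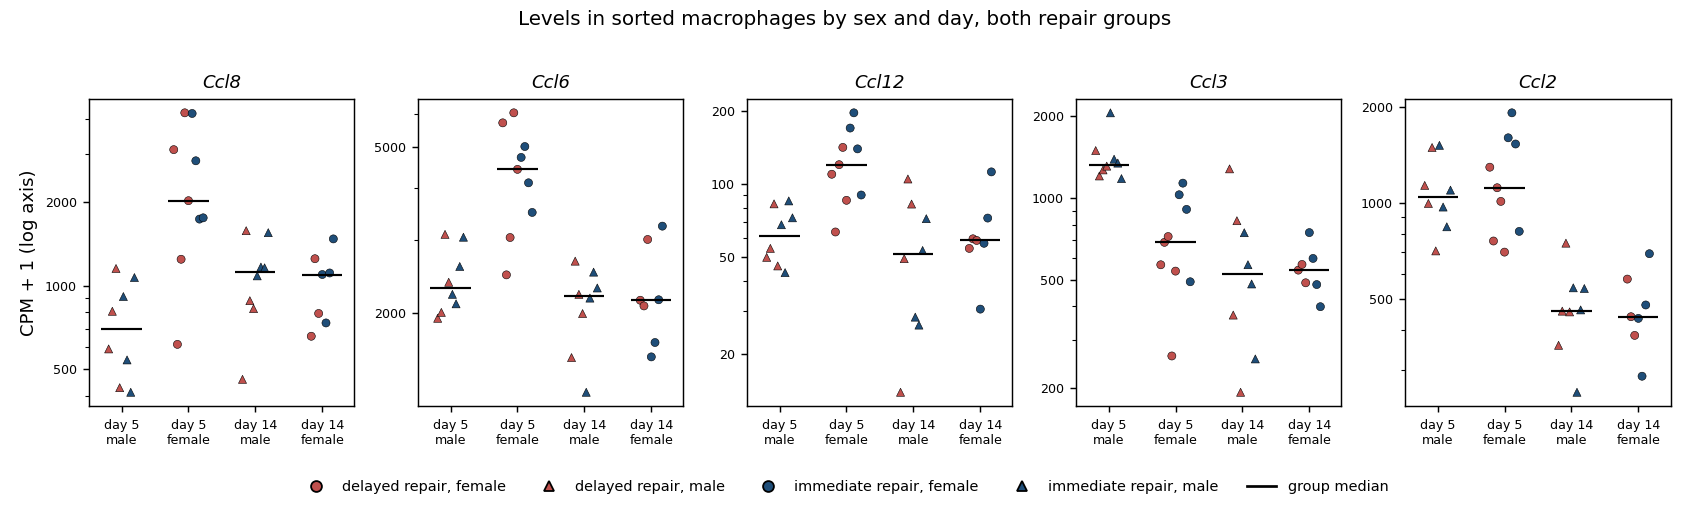
Level of Ccl8, Ccl6, Ccl12, Ccl3 and Ccl2 in sorted macrophages (CPM + 1, log axis) by day and sex, 1 point per library, coloured by repair group, with a line at the median. At day 5 Ccl3 does not overlap between sexes (medians 687 and 1329 CPM) and Ccl8 is higher in females (medians 2028 and 699 CPM), while at day 14 the sexes overlap in every panel.

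At day 14 sex called 0.0466% of 8589 genes in macrophages and no member by edgeR, with 2 members, Ccl5 and Ccl24, and 3.07% of genes at an unadjusted p under 0.05. Ccl8 then had medians of 1097 and 1122 CPM in females and males. DESeq2 called 1, Ccl24, at medians of 35.0 and 15.3 CPM. The interaction of sex and day, added after the sex comparisons were seen, called 1.78% of 8949 genes and 1 member, Ccl8 (log2 difference between days -1.72, SE 0.42, adjusted p = 0.0347), a call that was lost without a filter on low counts (-1.69, adjusted p = 0.0534). Ccl3 was at 0.94 (SE 0.42, adjusted p = 0.187) in that test.

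In the day 5 Schwann cell sort Ccl2 was 2.83-fold higher in females (260 ± 112 against 71.2 ± 34.6 CPM, SD, n = 8 each, adjusted p = 0.0177), and Ccl12 passed narrowly (21.5 ± 15.7 against 1.49 ± 3.45 CPM, adjusted p = 0.0497), as 2 of 9 tested beside 7.02% of 9604 genes, 1.66% higher in females. Macrophage markers there summed to a median of 3700 CPM in females and 1024 CPM in males. With that list as a covariate neither passed, at 1.17 for Ccl2 (adjusted p = 0.321) and 2.45 for Ccl12 (adjusted p = 0.554) on the log2 scale. Sex called 0.0391% of genes in the day 14 sort and 0.0654% in the stump, with no member in either. In edgeR 0 members of the former and 1 of the latter, Ccl12 (0.82, SE 0.25, adjusted p = 0.26), had an unadjusted p under 0.05, as 2.52% and 14.6% of genes did, and DESeq2 called 0 in both. The interaction of sex and day in the sort called 0.174% of 10923 genes and no member by edgeR, with 6 members and 15% of genes at an unadjusted p under 0.05, while DESeq2 called 3, Ccl2, Ccl6 and Ccl8.

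Within macrophages the members moved in small groups from library to library. After each of the 4 day and repair groups was centred on its mean, Ccl2 and Ccl7, neighbours on chromosome 11, rose and fell together over the 32 libraries (r = 0.902, Spearman's rho 0.909 on log2 CPM). The value was 0.89 without the 2 farthest libraries, 0.911 after centring on sex as well, and 0.931 at day 5 and 0.869 at day 14. Ccl3 and Ccl4, also neighbours, followed each other (r = 0.808, rho 0.683, 0.842 after centring on sex). Ccl8 and Ccl6, which lie in different clusters, gave r = 0.828 (rho 0.826), which was 0.702 after centring on sex and 0.531 within day 14. Ccl9 and Ccl24, on different chromosomes, gave r = 0.742 (rho 0.657).

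Ccl3 ran against the female-high members, with r = -0.648 against Ccl6, -0.596 against Ccl8 and -0.589 against Ccl12. After centring on sex these were -0.447, -0.353 and -0.485. All pairs share libraries and scaling, and the values are given as a description. Among the 8939 other genes searched in the same libraries, with the 10 members left out, the pattern most like Ccl3 was that of Lilrb4, an inhibitory receptor of myeloid cells (r = 0.933), then Il1a (0.930) and Hnrnpf (0.928). Among these genes Ccl4 was most like Tnf (0.841) and Nfkbib (0.814), both on the NF-kB list. Ccl6 was most like Clec10a, a lectin of alternatively activated macrophages (0.885), which also stood next to Gpt2 (0.846) for Ccl8 at 0.808. Outside the family Ccl12 was most like Ly86 (0.859), Ccl24 most like F7 (0.772) and Ccl7 most like Wfdc17 (0.679). The nearest genes of Ccl9, Ccl5 and Ccl2 outside the family were Commd7 (0.683), Cd40 (0.613) and Ccr3 (0.603). The values for genes outside the family were centred on day and repair group but not on sex, and used CPM scaled as for the tests.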

How the data were processed

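RNA was sequenced from sorted macrophages, from the sorted Schwann cells and from the distal stump. Per the labels and the study's methods, the authors trimmed reads with cutadapt 1.8 and aligned them to mm10 with TopHat2 2.1.1, and their processing notes also name Cufflinks 2.2.1 and, without a version, Cuffnorm. The deposited tables hold raw counts per gene as the authors made them, treated here as estimated counts, and the program that counted them is not given in the sources used here. About 1% of the deposited values (0.952%, 0.951% and 1.18% in the 3 tables) were not whole and were rounded; none belonged to a member.

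Genes that reached 5 CPM in 6 or more libraries were tested with edgeR 4.0.16 (R 4.3.3), using TMM scaling, the quasi-likelihood test and Benjamini-Hochberg adjustment over all genes tested, at 0.05. Members were named whether or not they passed. The values of 1 receptor on the gene lists are not reported here. Levels are plain CPM, and fold changes come from the fits. TMM and library size scaling differed in the median of all genes by 0.161 (log2) for days in macrophages after immediate repair, 0.176 and 0.199 for days in the Schwann cell sort, 0.249 and 0.367 between cell types, and 0.152 and 0.207 between sexes at day 5. Alternatives were DESeq2 1.42.0, other filters, library size scaling, covariates, blocks and single libraries left out. The fits were also run on simulated counts with known changes, and the outcome is not given here. The members and gene lists were chosen with earlier results of these data known. By their labels 16 animals gave both cell types at day 5 and 15 at day 14, and a block for the animal changed no member's call between cell types. Each library came from 1 animal, so p-values measure the spread between animals. The largest count total was 30796823, and low members rest on few reads, for example Ccl24 in the stump at 0 to 2.03 CPM.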

Additional observations from a re-analysis of the deposited data

Results flagged for a closer look

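In groups of 4 to 10 libraries the lowest or highest library was compared with its nearest neighbour, as a share of the group's range, for 99 pairs of a member and a group. Of these 3 had a library standing apart at the 95% level of Dixon's test, where chance gives about 1 in 20. Ccl12 was lowest in day 14 delayed macrophage replicate 1, at 12.9 CPM with the next library at 48.3 CPM. Ccl9 was lowest in day 5 immediate macrophage replicate 3, at 819 CPM with the next at 1342 CPM. Ccl24 was highest in immediate stump replicate 4, at 1.99 CPM with the next at 1.13 CPM. All 3 were from males. The difference of Ccl8 between females and males in macrophages itself differed between day 5 and day 14, by -1.72 on the log2 scale (SE 0.42, adjusted p = 0.0347, edgeR's quasi-likelihood test), a call that was lost without a filter on low counts (-1.69, adjusted p = 0.0534).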

How the results depend on the processing

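Over the alternatives to the processing, 891 of 949 member values kept their direction and their side of the threshold, 12 lost their call, 15 gained one and 31 changed sign. With single libraries left out, which was done for the delay and day comparisons, these numbers were 1232 of 1306, 11, 9 and 54. The causes of these changes were not tested. In the Schwann cell sort Ccl24 and Ccl12, and in the stump Ccl24, were at or near 0 in many libraries, and the reason was not tested. Replicate numbers follow sex, and the labels name nothing else that same-numbered animals share across repair groups or days. Between repair groups, same-numbered macrophages correlated in their deviations between -0.0232 and 0.495 at day 5, 3 of 8 best with their own number, and between -0.0315 and 0.502 at day 14, 5 of 7 best with their own. With the replicate block, Ccl24 lost its call between days in macrophages after immediate repair (0.98, adjusted p = 0.0955, edgeR) and gained one after delayed repair (1.98, adjusted p = 0.0444). No paired analysis was possible for the comparisons between sexes because the groups share no number.

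The count of members called was 1 for days in the Schwann cell sort after immediate repair, against 2 by DESeq2 and 0 with the replicate block. After delayed repair it was 2, against 5 by DESeq2, 1 with sex as a covariate, 0 with the replicate block and 1 with macrophage markers as a covariate. For sex in that sort at day 5 it was 2, against 5 by DESeq2 (Ccl2, Ccl6, Ccl7, Ccl9 and Ccl12), 1 with either other filter on low counts and 0 with macrophage markers as a covariate. DESeq2 called 1 member for repair by day in the sort, 1 for repair by cell type at day 5, 1 for sex in macrophages at day 14 and 3 for sex by day in the sort, where edgeR called 0. For sex by day in macrophages the count was 1, against 0 without a filter and 2 with the replicate block. For delay in the stump it was 0, against 2 with macrophage markers as a covariate. With 1 library left out the counts ran from 0 to 1 for delay in the stump, 6 to 7 and 3 to 4 for days in macrophages after immediate and delayed repair, and 1 to 2 and 2 to 3 in the Schwann cell sort.

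Signs that changed (log2) were these. For delay in macrophages at day 5, Ccl24 was -0.56 by DESeq2, -0.20 with sex as a covariate and -1.16 with the block, and Ccl6 was 0.019 with library size scaling. At day 14 Ccl12 was -0.0088 with the block. For delay in the Schwann cell sort at day 5, Ccl5 was 0.055 with library size scaling, 0.080 with sex, 0.070 with the block and 0.12 with macrophage markers, Ccl4 was -0.11 with sex and -0.78 with macrophage markers, and Ccl12 and Ccl6 were -0.82 and -0.18 with macrophage markers. At day 14 Ccl3 was -0.0055 with sex and -0.11 with the block, Ccl7 -0.075 and Ccl4 -0.12 with the block, and Ccl4 -0.14, Ccl6 -0.24 and Ccl9 -0.0037 with macrophage markers. For days in that sort Ccl8 was 0.14 after immediate repair with library size scaling, and after delayed repair Ccl7 was 0.24 and Ccl12 0.021 with macrophage markers. For sex, Ccl2 in day 5 macrophages was 0.11 and, in the sort, Ccl3 at day 5 was 0.15 and Ccl9 at day 14 -0.054 with library size scaling, while Ccl4 at day 5 was -0.34 and Ccl5 at day 14 -0.28 with macrophage markers. In the stump Ccl7 was -0.044, Ccl8 -0.38 and Ccl9 -0.35 with macrophage markers.

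With 1 library left out, delay in macrophages ran at day 5 from -0.52 to 0.13 for Ccl8, -0.21 to 0.020 for Ccl6 and -0.57 to 0.54 for Ccl24. At day 14 it ran from -0.040 to 0.20 for Ccl2, -0.15 to 0.057 for Ccl7, -0.081 to 0.34 for Ccl12, -0.10 to 0.38 for Ccl3, -0.054 to 0.15 for Ccl9 and -0.75 to 0.17 for Ccl24. In the Schwann cell sort it ran at day 5 from -0.20 to 0.76 for Ccl4 and -0.11 to 0.21 for Ccl5, and at day 14 from -0.38 to 0.38 for Ccl2, -0.60 to 1.06 for Ccl7, -0.12 to 0.32 for Ccl3, -0.20 to 0.20 for Ccl4, -0.10 to 0.29 for Ccl6 and -0.019 to 0.26 for Ccl9. In the stump it ran from -0.27 to 0.019 for Ccl6 and -0.069 to 0.19 for Ccl9. For days, Ccl5 in macrophages after immediate repair ran from -0.22 to 0.46, and in the sort Ccl8 ran from -0.73 to 0.51 and Ccl9 from -0.0045 to 0.45 after immediate repair and Ccl2 from -0.38 to 0.33 after delayed repair.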
